A study of Mus musculus with 15 samples.

Results

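The 8 genes Ppara, Cpt1a, Cpt2, Acadm, Ehhadh, Fabp1, Pdk4 and Bdh1, which control or carry out fatty acid oxidation in the liver, were followed through the first day of culture of mouse hepatocytes. They were taken by symbol: every probe set (a group of short array probes that reads 1 transcript) whose annotation gave 1 of these symbols and no other was used. All 8 genes were on the array, with 15 of the 34945 probe sets that carried a single symbol, out of 18193 genes in all. Ppara and Cpt1a had 3 probe sets each, Cpt2, Fabp1 and Bdh1 had 2 each, and Acadm, Ehhadh and Pdk4 had 1 each. All 15 passed the filter on background signal and were among the 22096 probe sets tested.

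Hepatocytes came from male C57BL/6 mice with no genetic change or drug named in the labels, and their age was not given. Cells measured directly after isolation (fresh, 0 h) were compared with monolayers in tissue culture dishes (TCD) and with three-dimensional aggregates grown in rotating wall vessels (RWV), which keep cells in suspension by slow rotation, each after 4 h and 24 h. Each of the 5 groups had 3 arrays, described as independent biological replicates; whether they were separate animals was not stated. The deposited values are log2 changes of each probe set from the median of the 3 fresh arrays, so a fresh median is 0 by construction, the level of a gene is not kept, and no gene can be ranked against another by level. For the same reason the presence of hepatocyte transcripts could not be checked as a level; the 20 probe sets of 10 hepatocyte marker genes had array medians between -0.09 and 0.06 at 4 h, between -0.50 and -0.41 in TCD at 24 h and between -0.73 and -0.57 in RWV at 24 h. A difference was called where limma's Benjamini-Hochberg adjusted p over all probe sets tested was below 0.05. By this rule 17 of the 20 hepatocyte marker probe sets (8 of 10 genes) were lower than fresh in TCD at 24 h, against 21.6% of all. In RWV at 24 h 19 of 20 (9 of 10 genes) were lower, against 17.1% of all. Among the arrays, TCD 4 h replicate 2 stood apart, with a median of 1.09 over the spiked hybridisation controls against -0.74 to 0.18 elsewhere.

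PPAR-alpha, the product of Ppara, is a nuclear receptor that binds fatty acids and, paired with a retinoid X receptor, switches on genes for burning fat in the fasted liver. Fatty acids are carried in the cytosol by Fabp1, enter mitochondria through Cpt1a on the outer and Cpt2 on the inner membrane, and are shortened by dehydrogenases such as Acadm; Ehhadh works in the parallel peroxisomal route. Bdh1 converts acetoacetate to the ketone body beta-hydroxybutyrate, and Pdk4 blocks pyruvate dehydrogenase so that carbohydrate is spared.

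The PPAR-alpha and retinoid X receptor pair binds a direct repeat of AGGTCA with 1 base between the copies, written AGGTCANAGGTCA and called DR1. The 250 bases before the annotated start were searched on both strands in all 8 genes (9 windows, Bdh1 having 2) with sequences from RefSeq on GRCm38.p6. The windows of Fabp1 and Ppara are shown because these genes moved in opposite directions between the vessels at 24 h; capitals mark the best DR1 match, 5′ to 3′ on the gene's strand.
Fabp1: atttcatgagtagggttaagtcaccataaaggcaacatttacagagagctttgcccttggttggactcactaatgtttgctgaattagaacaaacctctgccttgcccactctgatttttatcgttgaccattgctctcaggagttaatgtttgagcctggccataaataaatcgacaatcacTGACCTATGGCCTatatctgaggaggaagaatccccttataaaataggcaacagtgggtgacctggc
Ppara: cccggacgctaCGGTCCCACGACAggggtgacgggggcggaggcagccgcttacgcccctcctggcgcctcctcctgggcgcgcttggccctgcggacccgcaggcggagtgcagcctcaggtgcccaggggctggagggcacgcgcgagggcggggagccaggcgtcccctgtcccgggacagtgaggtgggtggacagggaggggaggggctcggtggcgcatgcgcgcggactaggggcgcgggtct
The Fabp1 window, chr6:71199629-71199878 on the + strand, held a DR1 match with 1 mismatch in its 12 fixed bases, on the reverse strand, 67 to 55 bases before the start. A match that close or closer was present in 0.484% of 32851 promoter windows of this length. The Ppara window, chr15:85735526-85735775 on the + strand, had no exact AGGTCA on either strand, and its best DR1 match had 4 mismatches.
The other members had weaker matches, and those with 3 or 4 mismatches are shown, for Bdh1 in the closer of its windows, with 10 bases, where the window allowed, on each side.
Acadm: gTGACCTTCGGGCTccggtgacac
Cpt1a: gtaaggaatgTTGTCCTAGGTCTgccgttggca
Pdk4: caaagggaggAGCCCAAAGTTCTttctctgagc
Ehhadh: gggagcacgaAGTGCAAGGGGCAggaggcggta
Bdh1: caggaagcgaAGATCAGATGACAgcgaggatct
The matches of Acadm and Bdh1 had 3 mismatches, a closeness that 21.3% of all windows reached, and those of Cpt1a, Pdk4 and Ehhadh had 4. The Bdh1 window shown is chr16:31428503-31428752 on the + strand. The other Bdh1 window had a best match with 4 mismatches and that of Cpt2 with 5. An exact AGGTCA on either strand occurred in 14% of all windows and in those of Fabp1, Acadm and Cpt1a here. A match describes letters in a window and is not evidence of binding, and sites outside these windows were not searched.

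After a day in culture Ppara, Cpt1a, Cpt2, Ehhadh, Fabp1 and Bdh1 were all below their fresh level in both vessels, and Pdk4 was above it. At 4 h Ppara had already fallen and Pdk4 had already risen in both vessels. At 24 h Ppara was higher and Fabp1 lower in RWV than in TCD, while Cpt1a and Ehhadh, which had fallen steeply, were not called between the vessels.

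Of the 15 member probe sets, limma called 0 between the vessels at 4 h, and 0 had an unadjusted p below 0.05. Of all probe sets tested, 4.68% were called higher and 0.706% lower in RWV there (5.39% in either direction). At 24 h 7 of 15 were called, 4 higher and 3 lower in RWV, against 7.88% of all higher and 6.48% lower (14.4% in either direction). With arrays centred on reference genes the split at 24 h was 6 higher and 2 lower. Those shares of all do not apply to this split. Centring moved the median of all probe sets to 0.31, and calls higher in RWV rose over the whole array too, as given in the last section. The change of the vessel difference from 4 h to 24 h was called for 4 of 15, 2 upward and 2 downward, against 4.52% and 6.96% of all (11.5% in either direction).

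Against fresh, TCD at 4 h had 2 member probe sets higher and 4 lower, from 2 and 2 genes (9.18% and 13.7% of all, 22.9% in either direction). RWV at 4 h had 2 higher and 6 lower, from 2 and 3 genes (14.3% and 13.2% of all, 27.6% in either direction). At 24 h TCD had 2 higher and 13 lower, from 2 and 6 genes (30.9% and 21.6% of all, 52.5% in either direction). RWV had 1 higher and 13 lower, from 1 and 6 genes (28.9% and 17.1% of all, 45.9% in either direction). From 4 h to 24 h in TCD 13 of 15 probe sets fell (6 genes) and 0 rose, where 17.9% of all fell and 32.9% rose (50.8% in either direction). In RWV 11 of 15 fell (7 genes) and 0 rose, where 13.6% of all fell and 24.7% rose (38.4% in either direction). In both vessels limma gave 0 member probe sets with an unadjusted p below 0.05 upward. The median over the 15 was -3.27 in TCD and -2.81 in RWV at 24 h against fresh, where the median of all probe sets was 0.00 and 0.01. The 4 comparisons with fresh share the same 3 fresh arrays. Without TCD 4 h replicate 2, the array that stood apart, the counts were 0 between the vessels at 4 h, 8 at 24 h, 5 for the change with time and 6 in TCD at 4 h against fresh. Calls over all probe sets moved as well when 1 array was left out. They ran from 2029 to 3757 between the vessels at 24 h and from 1716 to 2729 for the change with time. In TCD at 4 h against fresh they ran from 4065 to 4890.

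Ppara fell in every cultured group. By probe set 1449051_at the fresh arrays read 0.46, -0.51 and 0.00, TCD at 4 h -1.77, -3.30 and -1.49, RWV at 4 h -1.68, -3.20 and -1.34, TCD at 24 h -4.48, -5.12 and -4.69, and RWV at 24 h -2.89, -2.27 and -2.58 (log2 changes from the fresh median, replicates 1 to 3). All cultured arrays lay below the fresh ones, replicate 2 was the lowest array of both 4 h groups, and at 24 h every RWV array lay above every TCD array. The other Ppara probe sets, 1439675_at and 1457721_at, gave the same layout and correlated with it over the 15 arrays at Pearson's r = 0.98 and 0.99, a description of arrays that share samples. Group means of 1449051_at were -2.19 ± 0.98 in TCD and -2.07 ± 0.99 in RWV at 4 h, and -4.76 ± 0.33 in TCD and -2.58 ± 0.31 in RWV at 24 h (SD, n = 3). On a linear scale these are 22.2%, 24%, 3.72% and 16.9% of the fresh geometric mean. In bulk RNA a smaller share of hepatocytes and less transcript in each hepatocyte cannot be told apart.

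The vessels parted for Ppara between 4 h and 24 h. At 4 h the RWV minus TCD differences were -0.04, 0.11 and -0.12, and none was called. From 4 h to 24 h the TCD arrays fell by a further 2.24 to 2.85, called by all 3 probe sets (limma adjusted p = 0.0119, 0.00112 and 0.000452), whereas the RWV changes of -0.03, -0.51 and -0.43 were not called (adjusted p = 0.999, 0.51 and 0.577). At 24 h Ppara was higher in RWV than in TCD by 2.18 ± 0.65, 2.18 ± 0.518 and 2.30 ± 0.505 (log2, SE), which is 4.52-, 4.54- and 4.92-fold, with limma adjusted p = 0.0433, 0.0142 and 0.00922. The change of the vessel difference with time was 2.42 ± 0.715 for 1457721_at (adjusted p = 0.0486), and 2.22 and 2.07 for the others, which did not pass (adjusted p = 0.146 and 0.0912). The 24 h call of 1457721_at was kept in all 23 alternative settings (adjusted p 0.00111 to 0.0443) and that of 1449051_at in 19 of 22, being lost without TCD 24 h replicate 2 (2.0, adjusted p = 0.0608) and without RWV 24 h replicate 2 (2.03, adjusted p = 0.0597). The call of 1439675_at was kept in 11 of 22: it was lost when RWV 4 h replicate 1, any TCD 24 h array, RWV 24 h replicate 2 or 3, or any fresh array was left out, with differences of 2.02 to 2.26 and adjusted p up to 0.138. The time-dependent call of 1457721_at was kept in 9 of 23, and leaving out any array other than TCD 4 h replicate 2 or RWV 4 h replicate 3 ended it (1.86 to 2.64, adjusted p 0.0513 to 0.111). Each of these calls kept in only part of the settings was also lost in a fit other than those leaving out 1 array.

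**Figure D1:**
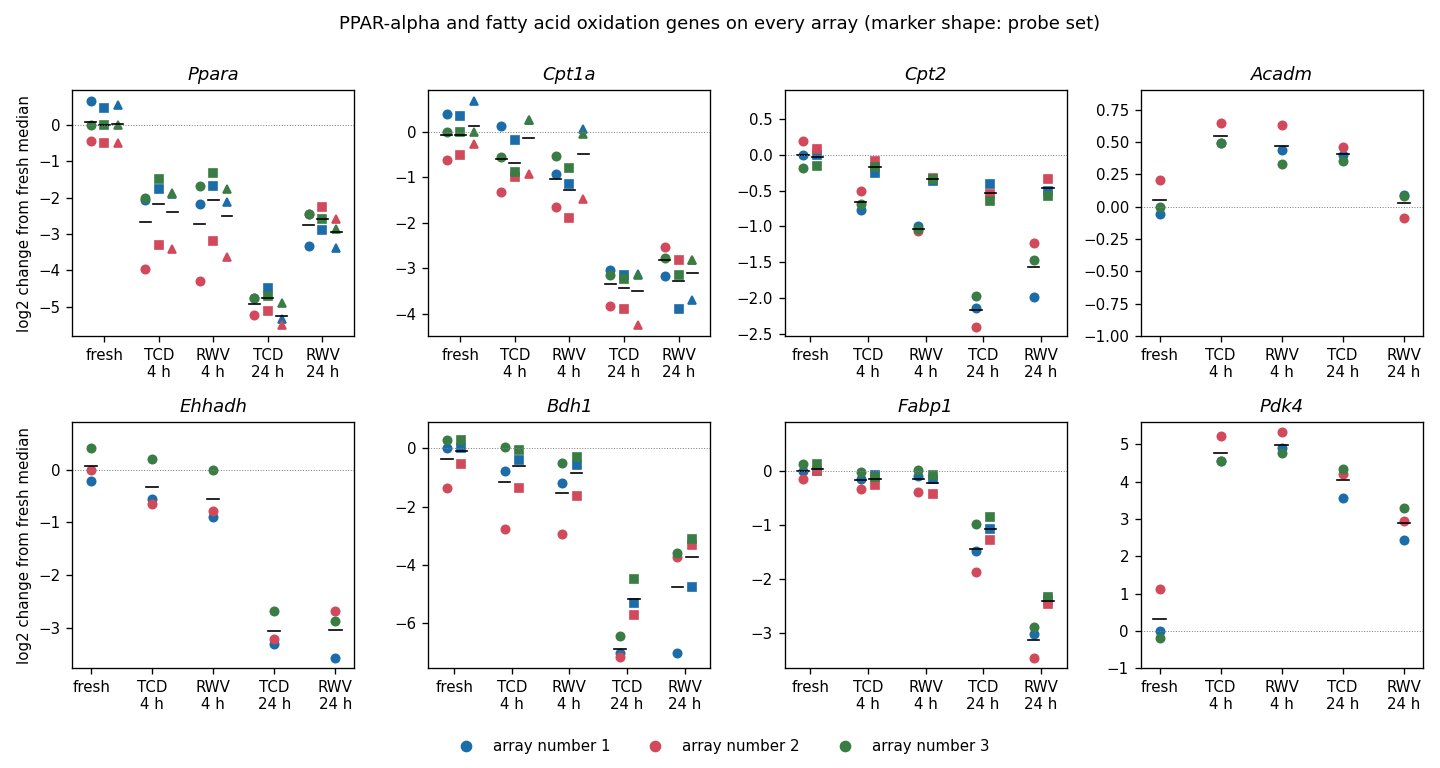
Log2 change from the fresh median of every member probe set on each of the 15 arrays, by group; marker shapes are probe sets of a gene, colours are the array numbers, and black bars are group means of 3 arrays. At 24 h Ppara in RWV lies above TCD, Fabp1 and Pdk4 in RWV lie below TCD, and Acadm stays within 1 log2 unit of fresh throughout.

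Fabp1, the liver's main cytosolic fatty acid carrier, showed the opposite vessel difference. By probe set 1417556_at it read 0.00, -0.15 and 0.12 in fresh cells, -0.15, -0.34 and -0.03 in TCD and -0.10, -0.40 and 0.01 in RWV at 4 h, then -1.48, -1.88 and -0.98 in TCD and -3.03, -3.48 and -2.89 in RWV at 24 h. The 4 h groups overlapped each other, and at 24 h every RWV array lay below every TCD array. Probe set 1448764_a_at gave -1.09, -1.29 and -0.86 in TCD and -2.40, -2.47 and -2.35 in RWV at 24 h, again without overlap. Fabp1 therefore stood at 36.9% and 46% of fresh in TCD and at 11.5% and 18.4% in RWV at 24 h by the 2 probe sets. The RWV minus TCD difference at 24 h was -1.69 ± 0.216 (adjusted p = 0.000294) and -1.32 ± 0.12 (adjusted p = 2.2e-05), a 3.22- and 2.5-fold lower signal in RWV. It changed between 4 h and 24 h by -1.69 (adjusted p = 0.00509) and -1.26 (adjusted p = 0.00106). These calls were kept in all 23 and all 21 settings that could test the 2 probe sets.

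At 4 h Fabp1 was still close to fresh: the differences of -0.16 and -0.20 in TCD and of -0.16 and -0.26 in RWV were not called. With the replicate number as a block, the RWV difference of 1448764_a_at at 4 h was called (-0.26, adjusted p = 0.0431, against 0.128 without the block, and 0.00388 to 0.394 over its alternatives).

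Pdk4, the kinase that turns off pyruvate dehydrogenase, rose most among the members. Its probe set 1417273_at read 0.00, 1.12 and -0.18 in fresh cells, 4.56, 5.21 and 4.56 in TCD and 4.90, 5.32 and 4.76 in RWV at 4 h, and 3.55, 4.21 and 4.35 in TCD and 2.44, 2.94 and 3.30 in RWV at 24 h. Every cultured array lay above every fresh array, and fresh replicate 2 stood above the other fresh ones. Against the fresh geometric mean Pdk4 was 22.1-fold higher in TCD and 25.6-fold higher in RWV at 4 h, and 13.2-fold and 5.98-fold higher at 24 h (limma adjusted p = 3.16e-06, 1.73e-06, 2.12e-06 and 6.94e-05). From 4 h to 24 h it fell by 2.10 in RWV (adjusted p = 0.000493); in TCD the change of -0.74 was not called (adjusted p = 0.101), was called with the replicate number as a block (adjusted p = 0.0404) and was called without fresh replicate 2 (adjusted p = 0.0439), with a range of 0.000686 to 0.309 over its alternatives. At 24 h the RWV arrays all lay below the TCD arrays, but the difference of -1.14 ± 0.354 just missed the threshold (adjusted p = 0.0505). It was called in 8 of 23 alternatives (adjusted p 0.0146 to 0.166). Among them were the replicate number as a block, and the fits without TCD 4 h replicate 2 (0.0438), TCD 24 h replicate 1 (0.0348), fresh replicate 2 (0.0186) and fresh replicate 3 (0.0438). The deviations of same-numbered TCD and RWV arrays at 24 h correlated at 0.13, 0.08 and 0.35, so the labels and data leave their pairing unsettled.

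Cpt1a, the rate-controlling enzyme of mitochondrial fatty acid entry, fell late and to a similar extent in both vessels. By probe set 1460409_at it read 0.67, -0.26 and 0.00 in fresh cells, 0.26, -0.92 and 0.27 in TCD and 0.07, -1.48 and -0.05 in RWV at 4 h, and -3.12, -4.25 and -3.16 in TCD and -3.70, -2.81 and -2.82 in RWV at 24 h. The 4 h arrays overlapped the fresh ones, and all 24 h arrays lay below them while the vessels overlapped. Its 3 probe sets placed Cpt1a at 7.97% to 10.4% of fresh in TCD and 10.5% to 14.8% in RWV at 24 h, all called against fresh (largest adjusted p = 0.000143). The 24 h vessel differences of 0.51, 0.14 and 0.40 were not called, and their 95% intervals ran from -0.36 to 1.38, -0.65 to 0.93 and -0.66 to 1.47. At 4 h only the fall of 1438156_x_at in RWV was called (-1.22, adjusted p = 0.0254), and it was kept in 17 of 21 alternatives. It was lost without RWV 4 h replicate 2 (-0.91, adjusted p = 0.107), fresh replicate 1 (-1.02, 0.094) or fresh replicate 3 (-1.19, 0.0645), and in a fit of another kind. With the replicate number as a block, 1434866_x_at was called in RWV at 4 h too (-0.97, adjusted p = 0.041, range 0.0122 to 0.299 over its alternatives). The suffix x of 2 Cpt1a probe sets and 1 Cpt2 probe set marks probes that can read related transcripts.

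Cpt2, the inner-membrane partner, had a smaller fall at 24 h and, by 1 probe set, was already called lower than fresh in both vessels at 4 h. Probe set 1416772_at read 0.00, 0.19 and -0.19 in fresh cells, -0.77, -0.50 and -0.69 in TCD and -1.0, -1.06 and -1.03 in RWV at 4 h, and -2.13, -2.40 and -1.97 in TCD and -1.98, -1.23 and -1.47 in RWV at 24 h. At 4 h the RWV arrays were the lower ones and did not overlap TCD, and at 24 h RWV was higher on average with 1 overlapping array, replicate 1. The vessel difference was -0.38 ± 0.176 at 4 h (not called, adjusted p = 0.265) and 0.61 ± 0.176 at 24 h (adjusted p = 0.038), and the change of 0.99 ± 0.25 between them was called (adjusted p = 0.0253). The 24 h call was kept in 12 of 23 alternatives (0.44 to 0.91): it was lost without any RWV 4 h array, TCD 24 h replicate 1 or 2, RWV 24 h replicate 2 or 3, or fresh replicate 1 (0.44 to 0.63, adjusted p 0.0515 to 0.158). Fits other than those leaving out 1 array lost it too, with limma adjusted p up to 0.208. The call for the change was kept in 18 of 23, and was lost without RWV 4 h replicate 2 or 3, TCD 24 h replicate 2, or RWV 24 h replicate 2 or 3 (0.82 to 0.99, adjusted p 0.0521 to 0.0633). The probe sets disagreed in size: 1416772_at stood at 22.2% of fresh in TCD and 33.9% in RWV at 24 h, and 1447820_x_at at 70.1% and 73.6%, with a vessel difference of 0.07 (adjusted p = 0.762).

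Acadm, the medium-chain acyl-CoA dehydrogenase, was the only oxidation enzyme among the members that was called higher than fresh, a direction that did not hold under another scaling. It read -0.06, 0.21 and 0.00 in fresh cells, 0.49, 0.65 and 0.49 in TCD and 0.44, 0.63 and 0.33 in RWV at 4 h, and 0.40, 0.46 and 0.35 in TCD and 0.09, -0.09 and 0.08 in RWV at 24 h. The 4 h groups and the TCD 24 h group lay above fresh, and the RWV 24 h arrays fell back among the fresh values. Against fresh it was 1.41-fold higher in TCD and 1.34-fold higher in RWV at 4 h and 1.28-fold higher in TCD at 24 h (adjusted p = 0.00407, 0.00877 and 0.0108). With arrays centred on reference genes the 4 h differences were 0.31 in TCD (adjusted p = 0.0575) and 0.09 in RWV (adjusted p = 0.511) and were no longer called. At 24 h the centred difference from fresh was -0.84 in TCD, against 0.35 uncentred, and -0.91 in RWV, and both were called lower (adjusted p = 1.66e-05 and 1.18e-05). Acadm was lower in RWV than in TCD at 24 h (-0.38 ± 0.102, adjusted p = 0.0284), a call kept in 16 of 23 alternatives and lost without any TCD 24 h array or RWV 24 h replicate 2 or 3 (-0.40 to -0.32, adjusted p 0.0533 to 0.119) and after centring (-0.07, adjusted p = 0.642). It was also lost in a fit that neither centred the arrays nor left out 1 array.

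Ehhadh, the peroxisomal bifunctional enzyme, showed almost no vessel difference. It read -0.22, 0.00 and 0.40 in fresh cells, -0.56, -0.65 and 0.20 in TCD and -0.90, -0.78 and -0.01 in RWV at 4 h, and -3.31, -3.22 and -2.69 in TCD and -3.57, -2.69 and -2.88 in RWV at 24 h. It was 8.77-fold lower than fresh in TCD and 8.58-fold lower in RWV at 24 h (adjusted p = 3.81e-06 and 6.68e-06). The 24 h vessel difference was 0.03, with a 95% interval of -0.66 to 0.73. At 4 h the RWV difference from fresh of -0.62 was not called (adjusted p = 0.178), but was called with the replicate number as a block (adjusted p = 0.0243, range 0.0243 to 0.424 over its alternatives).

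Bdh1, the ketone body dehydrogenase, had the deepest fall by probe set 1426959_at. By 1452257_at it fell less in TCD at 24 h than Ppara 1457721_at (33.6-fold against 38.4-fold). By probe set 1426959_at it read 0.00, -1.36 and 0.28 in fresh cells, -0.78, -2.75 and 0.03 in TCD and -1.18, -2.92 and -0.49 in RWV at 4 h, and -7.01, -7.16 and -6.43 in TCD and -7.00, -3.71 and -3.59 in RWV at 24 h. Replicate 2 was the lowest array in fresh cells and in both 4 h groups, and in RWV at 24 h replicate 1 lay among the TCD values while the others lay more than 2 log2 units above them. Bdh1 was 90.6-fold and 33.6-fold lower than fresh in TCD and 21.2-fold and 12.4-fold lower in RWV at 24 h by the 2 probe sets, all called (adjusted p = 9.22e-05, 3.57e-06, 0.0023 and 8.9e-05). The 24 h vessel differences of 2.10 ± 0.962 and 1.44 ± 0.513 were not called (adjusted p = 0.19 and 0.0859). Without RWV 24 h replicate 1 they were 3.21 (adjusted p = 0.0271) and 1.96 (adjusted p = 0.0226); over all alternatives the adjusted p ran from 0.0271 to 0.478 and from 0.0203 to 0.272. That array also had the highest median over 16 probe sets of 11 Kupffer cell and macrophage marker genes, 2.40, against -0.04 and 1.12 on the other RWV 24 h arrays and -0.05 to 0.59 in TCD at 24 h, and the part of this in the Bdh1 values was not tested.

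**Figure D2:**
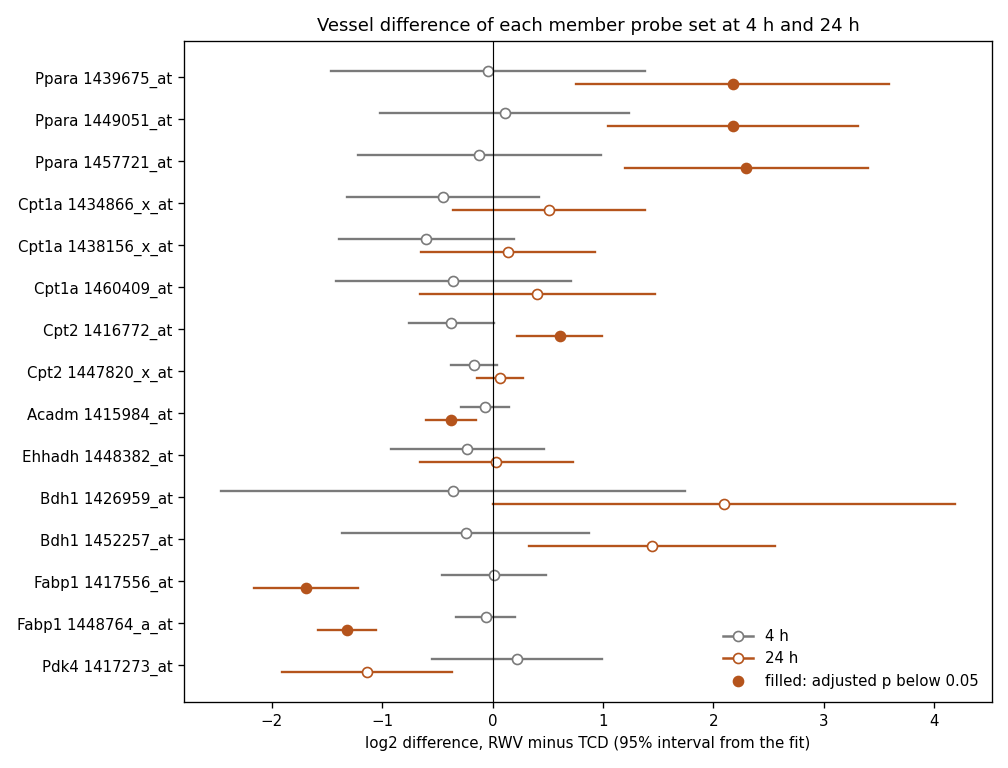
RWV minus TCD difference (log2) of each of the 15 member probe sets at 4 h (grey) and 24 h (brown), with 95% intervals from the fit; filled points have adjusted p below 0.05. No 4 h point is filled, and at 24 h the filled points are the 3 of Ppara and 1 of Cpt2 to the right of 0 and 2 of Fabp1 and 1 of Acadm to the left.

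Several of the member counts rested on single arrays. Leaving out TCD 24 h replicate 2 or RWV 24 h replicate 2 left 3 member probe sets called between the vessels at 24 h, leaving out RWV 24 h replicate 3 left 4, and leaving out RWV 24 h replicate 1 gave 9. The count for the change with time was 2 without RWV 4 h replicate 2, TCD 24 h replicate 2, or RWV 24 h replicate 2 or 3. Over all fits without 1 array, calls among all probe sets ran from 2029 to 3757 at 24 h and from 1716 to 2729 for the change with time. From 4 h to 24 h in RWV the fall of Cpt2 1416772_at (-0.53, adjusted p = 0.0321) was lost without any RWV 4 h array or RWV 24 h replicate 1 or 3 (-0.57 to -0.32, adjusted p 0.0523 to 0.131), and that of Bdh1 1426959_at (-3.24, adjusted p = 0.0182) without RWV 4 h replicate 1 or 3 or RWV 24 h replicate 1 (-3.06 to -2.12, adjusted p 0.0568 to 0.074). At 4 h the fall of Cpt2 1416772_at in TCD (-0.65, adjusted p = 0.0185) was lost without TCD 4 h replicate 1 (-0.60, 0.0604) or fresh replicate 2 (-0.56, 0.0704), and that of 1447820_x_at in RWV (-0.32, adjusted p = 0.0262) without any RWV 4 h array or fresh replicate 1 or 2 (-0.33 to -0.26, adjusted p 0.0541 to 0.0903). In the order given, these falls were kept in 15, 18 and 20 of 23 and in 15 of 21 alternatives. Fits other than those leaving out 1 array lost them too.

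The order of the group means was the same for Cpt1a, Cpt2, Ehhadh and Bdh1 by every probe set: fresh, TCD 4 h, RWV 4 h, RWV 24 h, TCD 24 h. For Cpt1a, Ehhadh and Bdh1 only the step from RWV 4 h to RWV 24 h separated neighbours without overlap. Ppara separated at the step from fresh to 4 h and again between RWV and TCD at 24 h. Fabp1 separated from 4 h to TCD at 24 h and from there to RWV at 24 h, and by 1448764_a_at also between fresh and TCD at 4 h. Pdk4 ran RWV 4 h, TCD 4 h, TCD 24 h, RWV 24 h, fresh, and only the 4 h pair overlapped.

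Other genes of the same pathways were described in 8 lists that were drawn up with earlier results of these data known, and in 3 of them most genes were called lower than fresh in both vessels at 24 h. Of 18 further mitochondrial beta-oxidation genes, 16 had a called fall and 1 a called rise in each vessel at 24 h, with list medians of -1.68 in TCD and -1.39 in RWV. Of 16 peroxisomal genes, 14 fell in TCD and 13 in RWV, with none called higher (medians -2.14 and -1.45). Of 21 other genes known as PPAR-alpha targets, some of which stand in the other lists too, 14 fell and 3 rose in TCD, and 13 fell and 4 rose in RWV (medians -2.15 and -1.43). The median of all probe sets was 0.00 and 0.01 in these comparisons. Centring the arrays on reference genes moved that median to -1.20 in TCD and -0.88 in RWV, and turned no median of these 3 lists. Of all probe sets tested, 30.9% were called higher and 21.6% lower in TCD, and 28.9% and 17.1% in RWV. The list counts are of genes with any called probe set, so they are not on the same scale as these shares. The other lists were mixed, as was the whole array. Of 13 genes for uptake, activation and binding, 5 were called lower and 4 higher in TCD, and 4 lower and 5 higher in RWV. Of 8 genes of the carnitine shuttle and its control, 6 were lower and 1 higher in TCD, and 4 lower and 3 higher in RWV. Of 15 receptor and cofactor genes, 7 were lower and 6 higher in TCD, and 4 lower and 5 higher in RWV. Of 10 pyruvate dehydrogenase genes, 6 were lower and 3 higher in TCD, and 4 lower and 3 higher in RWV. Of 5 ketone body genes, 2 were lower and 1 higher in TCD, and 3 lower and 2 higher in RWV.

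The vessel comparison of these lists at 24 h moved with the scaling. Centring moved the median of all probe sets there to 0.31, and calls higher in RWV rose over the whole array, not in these lists alone. The centred list medians ran from 0.22 (pyruvate dehydrogenase) to 1.2 (carnitine). After centring on reference genes the genes called higher and lower in RWV were 13 and 1 of 18 in the mitochondrial list, 10 and 0 of 16 in the peroxisomal list, 5 and 0 of 8 in the carnitine list, and 5 and 1 of 13 in the uptake list. They were 3 and 1 of 5 in the ketone body list, 7 and 2 of 21 among the other targets, 6 and 0 of 15 among receptors and cofactors, and 4 and 2 of 10 in the pyruvate dehydrogenase list. The uncentred counts follow, list by list, where 7.88% of all probe sets were called higher in RWV and 6.48% lower.

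Between the vessels at 24 h, 8 of the 18 mitochondrial genes were higher in RWV and 1 lower, by 13 and 3 of 27 probe sets (list median 0.38, all probe sets 0.00). Decr1, which handles unsaturated fatty acids, was higher by 1.74 ± 0.513 (adjusted p = 0.0404), the acyl-CoA dehydrogenase gene Acad11 by 1.46, Hadh, which works on short chains, by 1.03, and Slc25a20, the carnitine-acylcarnitine carrier, by 0.87. Each of these 4 was still below fresh in RWV at 24 h, at -3.68, -2.18, -1.11 and -2.12. Slc25a20 was counted in this list and not in that of the carnitine shuttle. In the peroxisomal list 5 of 16 genes were called higher in RWV by limma and 0 lower (6 of 29 probe sets higher, median 0.28), with 3 genes lower at an unadjusted p below 0.05. The largest differences were those of Amacr by 1.15, Pex11a by 0.85, Hsd17b4 by 0.82 and the transporter Abcd3 by 0.70. Ehhadh, of the same organelle, was not among the higher ones.

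In the list on the carnitine shuttle and its malonyl-CoA control, 3 of 8 genes were called higher in RWV at 24 h by limma and 0 lower, also at an unadjusted p below 0.05 (6 of 13 probe sets higher, median 0.89). Acaca, acetyl-CoA carboxylase, was higher by 2.38 ± 0.202; Prkaa2, a catalytic subunit of AMP-activated kinase, by 1.26; and Mlycd, which breaks down malonyl-CoA, by 1.15. The last of these acts in the opposite direction to the first on the inhibitor of Cpt1a. Acaca stood at -0.52 in TCD and 1.85 in RWV against fresh. The list's median against fresh in RWV at 24 h was 0.26 and turned to -0.63 after centring.

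Among uptake, activation and binding genes, 1 of 13 was higher and 1 lower in RWV at 24 h (2 and 1 of 24 probe sets, median 0.19), or 5 higher and 1 lower after centring. Fabp4, the adipocyte and macrophage fatty acid binding protein, was higher in RWV by 2.30 ± 0.296 and stood at 2.61 in TCD and 4.91 in RWV against fresh. Slc27a2, a very long-chain acyl-CoA synthetase and transporter of the liver, was lower (-0.62), the direction of Fabp1. Of 11 macrophage marker genes, 5 were called higher than fresh in RWV at 24 h and 1 in TCD, and after centring 1 was called higher and 3 lower in RWV. Between the vessels limma called 0 of those 11 higher (2 at an unadjusted p below 0.05) and 1 lower, or 4 higher and 1 lower after centring, and the part of macrophage transcripts in the Fabp4 value was not tested.

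Of 5 ketone body genes other than Bdh1, 1 was higher and 2 were lower in RWV at 24 h (3 and 2 of 10 probe sets, median 0.24), a split that turned to 3 higher and 1 lower after centring. Acat1, which makes acetoacetyl-CoA, was higher by 1.21 ± 0.22, while Oxct1, which uses ketone bodies in other tissues, was lower (-1.76 ± 0.425), as was Bdh2 (-0.90 ± 0.233). Oxct1 was not called against fresh in TCD at 24 h (0.38) and was called lower in RWV (-1.39).

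Of the 21 other PPAR-alpha targets, 6 were higher and 2 lower in RWV at 24 h (10 and 4 of 33 probe sets, median 0.05). Fgf21, a secreted fasting hormone, was higher by 5.80 ± 0.61 and was already higher at 4 h by 5.06 (adjusted p = 0.00137), a time at which no member was called between the vessels. G0s2, an inhibitor of lipolysis, was higher by 3.61 ± 0.638, and Mgll, a monoacylglycerol lipase, by 2.54. Cidea, a lipid droplet protein, was lower (-2.92 ± 0.361), standing at 4.94 in TCD and 2.01 in RWV against fresh.

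Of 15 genes for PPAR receptors other than Ppara, retinoid X receptors and cofactors, 4 were called higher in RWV at 24 h by limma and 0 lower (4 of 37 probe sets higher, median 0.07), with 2 genes lower at an unadjusted p below 0.05. The coactivator gene Ppargc1b was higher by 2.21 ± 0.549, the receptor genes Rxrg by 1.33 and Rxra by 1.12, and the coactivator gene Ncoa1 by 0.65. Rxra codes for a partner of PPAR-alpha on DNA; by probe set 1454773_at it fell by 1.20 in TCD and 1.31 in RWV at 4 h, and stood at -2.65 in TCD and -1.53 in RWV at 24 h against fresh.

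Of 10 genes for pyruvate dehydrogenase and its other kinases, 2 were higher and 2 lower in RWV at 24 h (3 and 4 of 17 probe sets), and the list median of -0.09 turned to 0.22 after centring. The lower ones were the kinase genes Pdk3 (-3.51 ± 0.319) and Pdk1 (-1.14 ± 0.255), and the higher ones the enzyme subunit genes Pdhb (0.90 ± 0.153) and Pdha1 (0.64 ± 0.169). Pdk3 rose in TCD at 24 h (3.76 against fresh) and was not called in RWV (0.25), while Pdk4 rose in both.

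**Figure D3:**
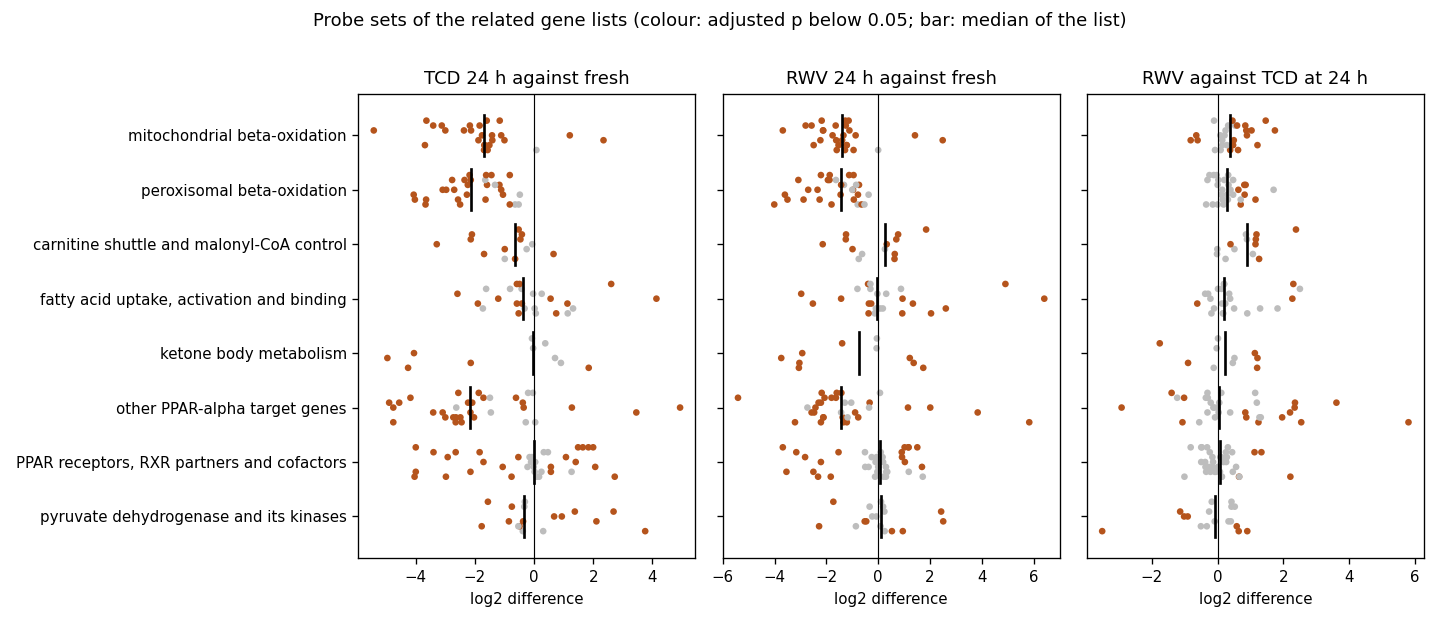
Log2 differences of the probe sets of 8 related gene lists (members left out) in TCD and RWV at 24 h against fresh and in RWV against TCD at 24 h; coloured points have adjusted p below 0.05 and black bars are list medians. Most beta-oxidation points lie left of 0 in the first 2 panels, and the list medians in the last panel lie between -0.09 and 0.89.

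The genes whose pattern over the 15 arrays was most like each member's were listed by Pearson's correlation with the member's most variable probe set, as a description of arrays that share groups. For Ppara they were Dennd5b (r = 0.978), Rxra (0.978) and Gphn (0.977), which differed between the vessels at 24 h by 0.83, 1.12 and 0.93, less than Ppara. For Fabp1 they were Sult2a8 (0.99), Hsd3b5 (0.986) and F11 (0.982), all lower in RWV at 24 h (-2.11, -4.13 and -1.21). For Pdk4 they were Nrip1 (0.981), Litaf (0.976) and Eif4e (0.971). Bdh1 was most like Decr1 (0.978), Cpt1a most like Ghr (0.983), Cpt2 most like Sdr9c7 (0.985), Ehhadh most like Vnn3 (0.994), and Acadm most like Pdlim5, at a lower 0.927. Among the members, Ppara and Fabp1 correlated at 0.40 to 0.48, while Cpt1a, Ehhadh and Bdh1 correlated with each other at 0.93 to 0.97.

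**Figure D4:**
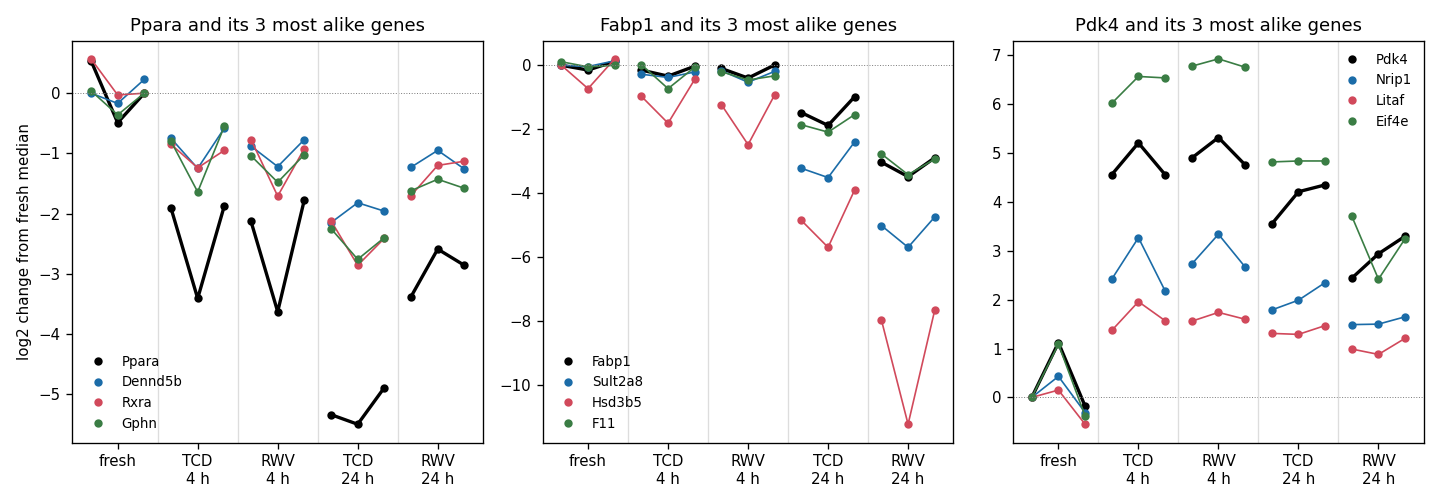
Log2 change from the fresh median on each array for Ppara, Fabp1 and Pdk4 (black) and the 3 genes most like each (colours); lines join the 3 arrays of a group in the order of their numbers, which is no time order. Ppara and its 3 most alike genes are lowest in TCD at 24 h, and Fabp1 and its 3 are lowest in RWV at 24 h.

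Markers of other cells and controls for RNA quality were read on the same arrays. Of 8 cholangiocyte marker genes listed, 3 were tested, with 5 probe sets. At 24 h their array medians were 2.61 to 3.84 in TCD and 0.04 to 0.07 in RWV, and all 3 genes were called lower in RWV, by 3 of the 5 probe sets. From 4 h to 24 h in TCD 2 of these probe sets were called higher and 2 lower, with 1 gene in both directions. At 4 h the medians were 0.12 to 0.72 in TCD and 0.09 to 0.72 in RWV, and 0 genes were called between the vessels. The gap between probe sets for the 3′ and 5′ ends of Actb (3′ minus 5′), a gauge of RNA integrity, could be read only relative to the fresh medians. At 24 h this relative gap was -0.44 ± 0.009 in TCD and -0.23 ± 0.024 in RWV (SD, n = 3; exact two-sided permutation p = 0.1, the smallest that 3 against 3 allows). The same relative gap for Gapdh read -0.05 to -0.01 in TCD and -0.06 to -0.05 in RWV at 24 h. The part of these in the 24 h differences of Ppara, Fabp1, Cpt2 and Acadm was not tested. Array medians of the 7 endothelial and 7 stellate cell probe sets stayed between -0.30 and 0.08, and only 2 probe sets of lymphocyte and neutrophil genes were tested.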

How the data were processed

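RNA of 15 samples of mouse hepatocytes was hybridised to 1-colour Affymetrix arrays. The deposited log2 values were made with GCRMA, per the submitters' processing notes (version not given in the sources used here). The fresh arrays had a median of 0 in all 45101 probe sets, so the authors' values were read as log2 changes from that median, a step that no label states. Such values keep no signal level, and 3 arrays a group limit the precision.

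Probe sets with 1 symbol were kept (932 had several, 9160 none), and 12849 of them that followed the array background were dropped (SD below 0.5 and a correlation above 0.8 with the medians, by array, of those 20% of probe sets that varied least). The remaining 22096 entered 1 limma fit of 5 group means (limma 3.58.1, R 4.3.3), with Benjamini-Hochberg adjustment over all of them and a threshold of 0.05; the fit was tested on simulated data. The members and lists were chosen with earlier results of these data known. The text names all members, up to 4 called genes of a list with the largest 24 h vessel difference, and the 3 genes most like a member. Alternatives were no filter, 1 probe set a gene, no shared-sequence probe sets, only the groups compared, centring on 9 reference genes, array weights, the replicate number as a block, and leaving out each array.

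The labels number the replicates without saying what a number marks. Same-numbered arrays deviated together in every pair (correlations above 0.1) for 5 of 10 pairs of groups: fresh with TCD and with RWV at 4 h, TCD with RWV at 4 h, and both 4 h groups with TCD at 24 h. In those comparisons the block is given beside a result it changes.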

Additional observations from a re-analysis of the deposited data

Results flagged for a closer look

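For 4 member probe sets the vessel difference itself changed between 4 h and 24 h, by limma's interaction term adjusted over all probe sets tested. Ppara 1457721_at changed by 2.42 toward RWV (adjusted p = 0.0486), with RWV above TCD on all 3 arrays of each group at 24 h. Cpt2 1416772_at changed by 0.99 (adjusted p = 0.0253), from lower in RWV at 4 h to higher on average at 24 h. Fabp1 changed by -1.69 for 1417556_at (adjusted p = 0.00509) and -1.26 for 1448764_a_at (adjusted p = 0.00106), with every RWV array below every TCD array at 24 h. Both Fabp1 calls were kept in all alternatives that tested them, and those of Ppara and Cpt2 in 9 and 18 of 23.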

How the results depend on the processing

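Of 135 member results (15 probe sets in 9 comparisons), 78 were called, and 58 of these kept direction and call in each of the alternatives that tested them, out of 23. Of the called results 1 reversed: Acadm in TCD at 24 h against fresh, from 0.35 to -0.84 (adjusted p = 1.66e-05) after centring on reference genes. Those genes themselves stood at 0.868 to 1.246 (array medians) at 24 h, and centring moved the median of all probe sets to as low as -1.20. Of the results not called, 16 changed sign in some alternative. After centring, RWV minus TCD at 4 h was -0.14 for Fabp1 1417556_at and -0.03 for Ppara 1449051_at, and the change of Acadm with time was 0.15. With array weights these 4 h values were -0.02 and -0.21, and Acadm in RWV at 24 h against fresh was 0.01. The cause was not tested.

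Leaving out 1 array gave the following ranges. RWV minus TCD at 4 h ran from -0.68 to 0.75 (Ppara 1439675_at), -0.45 to 0.68 (1449051_at) and -0.62 to 0.44 (1457721_at), from -0.08 to 0.12 (Fabp1 1417556_at) and -0.14 to 0.04 (1448764_a_at), from -1.15 to 0.33 (Bdh1 1426959_at) and -0.62 to 0.16 (1452257_at), from -0.75 to 0.14 (Cpt1a 1460409_at) and from -0.51 to 0.04 (Ehhadh). At 24 h it ran from -0.09 to 0.44 (Cpt1a 1438156_x_at) and -0.15 to 0.29 (Ehhadh). The change with time of Ehhadh ran from -0.01 to 0.54, Cpt1a 1460409_at in TCD at 4 h against fresh from -0.47 to 0.13, Ppara 1439675_at from 4 h to 24 h in RWV from -0.81 to 0.49, and Acadm in RWV at 24 h against fresh from -0.07 to 0.06. Member calls ran from 3 to 9 between the vessels at 24 h and from 2 to 5 for the change with time. Calls over all probe sets ran from 571 to 1457 between the vessels at 4 h (1191 with all arrays) and from 2029 to 3757 at 24 h (3173).

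With no background filter 15038 of 34945 probe sets were called between the vessels at 4 h (1191 with the filter), 7000 for the change with time (2536) and 24695 from 4 h to 24 h in TCD (11219). These 34945 include the 12849 that followed the array background. At 4 h the medians of the least variable probe sets were 0.019 to 0.066 in TCD and -0.065 to -0.017 in RWV. The part of this offset in the 15038 was not tested. With 1 probe set a gene, and so fewer tests, 766 and 1890 were called between the vessels at 4 h and 24 h, 1573 for the change with time, 3164 and 3671 in TCD and RWV at 4 h and 6981 and 6203 at 24 h against fresh, and 6905 and 5164 from 4 h to 24 h. Of 8 members among the 12423 genes tested, this called 4 in RWV at 4 h, 8 in TCD and 7 in RWV at 24 h against fresh, and 6 in TCD and 7 in RWV from 4 h to 24 h. Without shared-sequence probe sets 5594 were called from 4 h to 24 h in RWV (8478 with them). With only the groups compared, and so fewer arrays, 27 were called between the vessels at 4 h. Against fresh at 4 h, 2275 were called in TCD (5064 with all groups). In RWV at 4 h the fit of only the groups compared called 4 member probe sets. Its total over all probe sets is not given here, so that count is no result about the members.

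Centring called 8257 between the vessels at 24 h, 7462 higher and 795 lower, against 1741 and 1432 uncentred. For the change with time it called 8911 (8080 and 831, against 999 and 1537) and 8 member probe sets. At 4 h it called 646 higher and 405 lower against 1035 and 156. Against fresh it called 1609 higher and 5635 lower in TCD at 4 h (2028 and 3036 uncentred), 13211 in RWV at 4 h (2291 and 10920, against 3166 and 2926), 18245 in TCD at 24 h (2143 and 16102, against 6821 and 4783) and 16678 in RWV at 24 h (2158 and 14520, against 6376 and 3774). From 4 h to 24 h it called 16966 in TCD (2231 and 14735, against 7262 and 3957) and 14003 in RWV (2333 and 11670, against 5464 and 3014). Array weights called 1832 and 5000 between the vessels at 4 h and 24 h, and 4206 and 7 member probe sets for the change with time.

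With the replicate number as a block, calls of member probe sets were 9 between the vessels at 24 h and 6 for the change with time. The share of all probe sets called with the block is not given beside them, so these counts are no result about the members. The block called Pdk4 (-1.14, adjusted p = 0.0164) and Bdh1 1452257_at (1.44, adjusted p = 0.0272) at 24 h, and Pdk4 (-1.36, adjusted p = 0.0414) and Ppara 1449051_at (2.07, adjusted p = 0.0392) for the change with time. All 15 arrays correlated best with their own number, a hint from the data and not from the design. Beside these and the calls given with the results, the block changed no other member call in the fit of all arrays. The replicate block with only the groups compared, chosen after seeing the data, called 0 probe sets between the vessels at 4 h in limma (4354 at an unadjusted p below 0.05). It called 1700 and 4 member probe sets at 24 h, and 1756 in TCD at 4 h against fresh.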
